A study of Rattus norvegicus with 4 samples.

Results

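Matricellular proteins are secreted into the extracellular matrix, where they mostly signal to cells rather than bear load. They bind integrins, proteoglycans, growth factors and matrix fibres, and in the artery wall they are known for their part in injury repair and in the change of smooth muscle cells away from the contractile state. The 9 genes described here are the thrombospondins Thbs1 and Thbs2, tenascin C (Tnc), Sparc, periostin (Postn), the CCN family members Ccn1, Ccn2 and Ccn3, and fibronectin (Fn1). Fn1 is a structural adhesive protein that is usually set beside this class and not in it. Members were taken as the probe sets whose platform annotation gives exactly 1 gene symbol and whose symbol is in the list. This gave 9 probe sets of 8 genes, out of 31099 probe sets in the table and 14217 genes with a probe set of 1 symbol. Sparc had 2 probe sets. Thbs1 had 0 under this rule, so no value is given for it. All 9 probe sets passed the filter on dim probe sets, that of Thbs2 only through its IL-1b arrays.

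RNA came from smooth muscle cells of the aorta of Sprague-Dawley rats, grown in culture for 5 days with 10% serum and for 3 days without serum. They were then given IL-1b (interleukin-1 beta), an inflammatory signal, at 2.5 ng/mL in 2 samples, or vehicle, which was 0.1% bovine serum albumin, in 2 samples, for 24 hours. Each sample was hybridised to its own Affymetrix array, and the comparison asks what the cytokine did to transcript levels. Nothing in the labels says that samples of a group were separate cultures, so each p-value reflects the spread among these samples alone, and that spread may be technical.

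After 24 hours with IL-1b, Tnc was the 1 member gene past the threshold, at 3.41 times its vehicle level. Fn1, Sparc, Postn, Ccn1, Ccn2 and Ccn3 had no call, and IL-1b replicate 1 read 1.55 to 3.35 times IL-1b replicate 2 for each of them. Thbs2 was above background on the IL-1b arrays alone and did not pass. Of the 8 genes tested, 1 was called higher and 0 lower by limma at an adjusted p of 0.05, against 7.19% higher and 8.13% lower among all 10000 genes tested (6.32% and 7.11% of all probe sets tested). At an unadjusted p under 0.05 there were 2 higher and 0 lower, namely Tnc and Thbs2, the latter in the test only through its IL-1b arrays. Among all 10000 genes tested it was 1398 higher and 1592 lower. The median log2 fold change of the 8 genes was 0.65, against -0.01 over all genes tested. Without Thbs2, which passed the filter only through its IL-1b arrays, the median of the other 7 was 0.56. That of the 8 genes came to 0.034 without IL-1b replicate 1 and to 1.27 when replicate 2 of that group was left out. After quantile normalization it was 0.25.

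One array, IL-1b replicate 1, differed from the rest, and the members must be read against that. Its hybridisation controls, control transcripts added to every sample, read 3.50 times their vehicle mean, against 0.954 times on IL-1b replicate 2. Among the 294 probe sets with a mean vehicle intensity of 5000 or more, 258 (87.8%) read higher on IL-1b replicate 1 than on IL-1b replicate 2, with a median ratio of 1.47 and a 5th to 95th percentile range of 0.883 to 2.37. The 6 probe sets of Fn1, Sparc, Postn, Ccn2 and Ccn3 belong to these bright probe sets. The background of an array was read as the 95th percentile of 27 other control probe sets, for bacterial transcripts taken as absent. It was 76.7 and 18.8 on IL-1b replicates 1 and 2, and 29.4 and 26.9 on vehicle replicates 1 and 2. The 7 smooth muscle markers were above background on all 4 arrays, and their summed intensity was 11660 and 8692 with IL-1b and 30735 and 31511 with vehicle.

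Tnc encodes tenascin C, a large glycoprotein that is scarce in the resting artery and is known to appear in injured or inflamed vessels, where it loosens the hold of cells on fibronectin. Its probe set, 1373401_at, read 3876 and 3134 on IL-1b replicates 1 and 2, against 1081 and 960 on vehicle replicates 1 and 2. Both IL-1b arrays lay well above both vehicle arrays, and the groups did not overlap. The means were 3505 ± 525 with IL-1b and 1021 ± 85.5 with vehicle (SD, n = 2). The log2 fold change was 1.77 ± 0.16 (SE, limma, adjusted p = 0.000726), with a 95% interval, not adjusted over genes, of 1.38 to 2.16. Leaving out IL-1b replicate 1 gave 1.62 and leaving out IL-1b replicate 2 gave 1.92. Over the arrays, IL-1b replicate 1 read 1.24 times IL-1b replicate 2 for Tnc. The bright probe sets had a median ratio of 1.47, but Tnc, with a vehicle mean of 1021, is not among them. In RNA of whole cultures, more cells of a type and more RNA per cell cannot be told apart. Markers of adventitial fibroblasts were above background on all 4 arrays for 3 of 4 measured genes. Their summed intensity was 1274 and 1755 with IL-1b and 583 and 644 with vehicle, and their part in the change of Tnc was not tested. Of the endothelial markers, 0 of 6 were above background on all 4 arrays, with Pecam1, Tie1 and Vwf below it on every array. Tek and Esam were below it on IL-1b replicate 1 alone, the array with the highest background, and Kdr was above it on IL-1b replicate 2 alone. Of the macrophage markers, 1 of 6, Cd14, was above background on all 4 arrays, and of the T cell markers 0 of 5. Csf1r was below it on IL-1b replicate 1 alone, Cd3e on vehicle replicate 2 alone, and the rest on more arrays.

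The genes whose levels followed Tnc most closely were found by the distance between log2 values centred on their mean over the 4 arrays, among 9924 other named genes. The nearest was Ercc1, which encodes a DNA repair protein, at a distance of 0.08, and the next was Pdgfa, a platelet-derived growth factor chain, at 0.09. Ercc1 read 1783 and 1542 with IL-1b and 501 and 459 with vehicle. Pdgfa read 2581 and 2158 with IL-1b and 777 and 635 with vehicle. With 4 arrays in 2 groups, this likeness says little more than that the genes rose by a like amount with a like order of arrays.

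**Figure D1:**
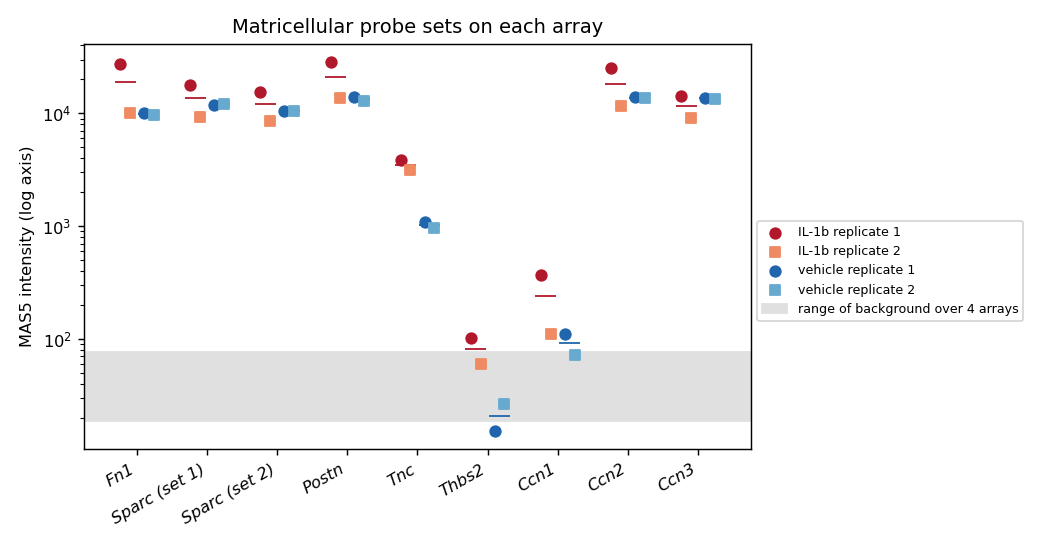
MAS5 intensity (log axis) of each matricellular probe set on IL-1b replicates 1 and 2 and vehicle replicates 1 and 2; points are arrays, short lines are group means, and the grey band spans the background of the arrays, 18.8 to 76.7. Tnc is higher on both IL-1b arrays, while for Fn1, Sparc, Postn, Ccn1, Ccn2 and Ccn3 the IL-1b replicate 2 point lies near or below the vehicle points.

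The sequence before the Tnc start is shown because Tnc is the member that moved, and that of Ccn2 because it is a bright member with no call. Both come from RefSeq on GRCr8, the 250 bases before the gene start of the promoter table, read 5′ to 3′ on the gene's strand. Of the 9 members, 6 had an entry in that table. Capitals mark matches on either strand to the motifs searched, which were, for NF-kB, GGG and CC with 5 free bases between them, and TGANTCA for AP-1, GGAATG for TEAD, the palindromic SMAD site and the CArG box of SRF.
Tnc, chr5:82476132-82476381, minus strand: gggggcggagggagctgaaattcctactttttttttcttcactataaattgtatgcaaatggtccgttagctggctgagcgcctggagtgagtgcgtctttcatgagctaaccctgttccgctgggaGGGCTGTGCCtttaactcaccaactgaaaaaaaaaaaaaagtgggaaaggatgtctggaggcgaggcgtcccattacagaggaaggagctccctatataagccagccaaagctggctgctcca
Ccn2, chr1:22624615-22624864, minus strand: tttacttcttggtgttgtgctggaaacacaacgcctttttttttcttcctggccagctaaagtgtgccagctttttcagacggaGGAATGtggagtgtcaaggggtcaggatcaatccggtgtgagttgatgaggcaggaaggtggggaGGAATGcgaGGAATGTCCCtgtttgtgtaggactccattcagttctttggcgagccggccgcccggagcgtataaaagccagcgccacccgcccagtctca
The Tnc window held 1 NF-kB match, GGGCTGTGCC, at 123 to 114 bases before the start, and 0 matches to the other motifs. The Ccn2 window held 3 TEAD matches, and its 1 NF-kB match on the reverse strand, GGAATGTCCC, overlaps the last of them. NF-kB matches were found in 3 of the 6 member windows (Tnc, Ccn1 and Ccn2) and in 42.3% of all 33469 promoter windows of the same length. TEAD matches were found in 4 of the 6 (Sparc, Thbs1, Ccn1 and Ccn2) and in 12.1% of all windows. AP-1, SMAD and CArG box matches were in 0 of the 6, against 6.34%, 0.173% and 1.5% of all windows. These matches describe letters in a window and do not show that a factor binds there.

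Fn1 encodes fibronectin, the adhesive fibril protein that cells assemble through integrins and that other matrix proteins are laid upon. Its probe set, 1370234_at, read 27521 and 10170 on IL-1b replicates 1 and 2, against 10158 and 9716 on vehicle replicates 1 and 2. IL-1b replicate 1 was far above the other arrays, and IL-1b replicate 2 was barely above the higher one with vehicle. The fitted log2 fold change was 0.75 ± 0.43 (SE, adjusted p = 0.32), with a 95% interval of -0.27 to 1.78. Leaving out IL-1b replicate 1 gave 0.03, and leaving out IL-1b replicate 2 gave 1.47. Against vehicle, Fn1 on IL-1b replicate 1 was at 2.77 times, above the 95th percentile of 2.30 for bright probe sets on that array. On IL-1b replicate 2 it was at 1.02 times.

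Postn encodes periostin, which links collagen and other matrix proteins and binds integrins. Its probe set, 1373911_at, read 28321 and 13732 on IL-1b replicates 1 and 2, against 13937 and 12910 on vehicle replicates 1 and 2. The IL-1b replicate 2 value lay between the vehicle values, so the groups overlapped. The fitted change was 0.56 ± 0.35 (log2, SE, adjusted p = 0.36; 95% interval -0.27 to 1.38). When IL-1b replicate 1 was left out it was 0.03, and when IL-1b replicate 2 was left out it was 1.08.

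Sparc encodes a collagen-binding protein, also called osteonectin, that guides collagen assembly and restrains cell spreading. Probe set 1367562_at read 17816 and 9310 on IL-1b replicates 1 and 2, against 11964 and 12072 on vehicle replicates 1 and 2. Probe set 1367563_at read 15517 and 8565 with IL-1b, against 10504 and 10536 with vehicle. On both, IL-1b replicate 1 was the highest of the 4 arrays and IL-1b replicate 2 the lowest. The log2 fold changes were 0.10 ± 0.32 and 0.13 ± 0.30 (SE, adjusted p = 0.87 and 0.81), with 95% intervals of -0.65 to 0.85 and -0.57 to 0.83. The direction turned with the array left out. Without IL-1b replicate 1 the values were -0.37 and -0.30. When IL-1b replicate 2 was left out they were 0.57 and 0.56.

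Thbs2 encodes thrombospondin 2, which holds back blood vessel growth and binds matrix proteases. Its probe set, 1385751_at, was dim, at 102 and 59.2 on IL-1b replicates 1 and 2, against 15.3 and 26.3 on vehicle replicates 1 and 2. Both IL-1b arrays were above their background and both vehicle arrays below theirs, so the ratio of intensities is given against background, as 2.77-fold or more with IL-1b. This bound leaves out the spread of the arrays, and vehicle replicate 2 was barely under its background of 26.9. Thbs2, Tnc and Fn1 were the 3 of 8 genes whose groups did not overlap, against 61.3% of all genes tested. Of these, Thbs2 was in the test only because of its IL-1b arrays. The test did not pass (log2 fold change 1.70 ± 0.65, SE, adjusted p = 0.15, unadjusted p = 0.035; 95% interval 0.15 to 3.24). It passed without IL-1b replicate 2, at 2.07 (adjusted p = 0.022), and not without IL-1b replicate 1, at 1.33 (adjusted p = 0.22).

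**Figure D2:**
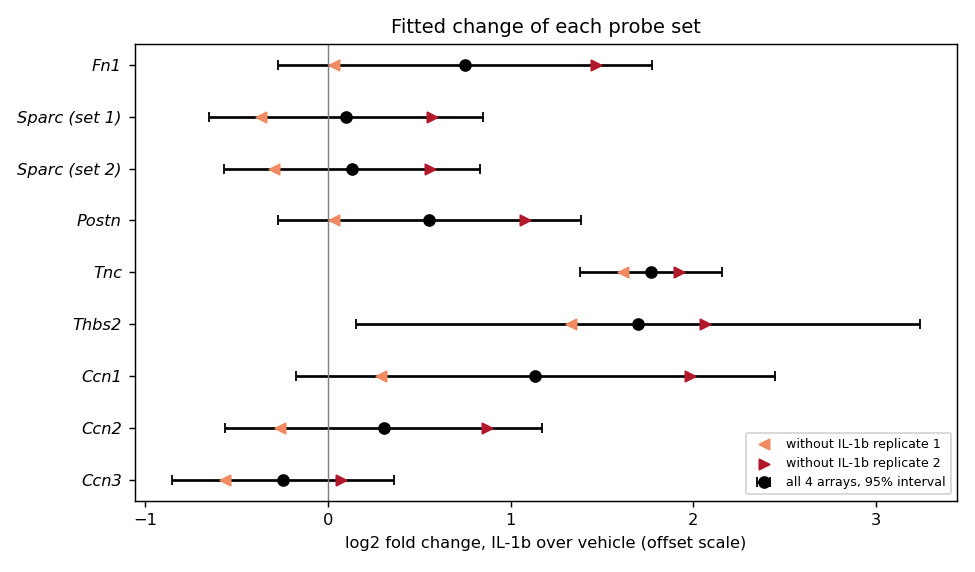
Log2 fold change of IL-1b over vehicle for each matricellular probe set; black points are the fit of all 4 arrays with its 95% interval, and triangles are the fits without IL-1b replicate 1 or without IL-1b replicate 2. Tnc, at 1.77, keeps all of its values well above 0, and the triangles of Sparc, Ccn2 and Ccn3 fall on either side of 0.

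The CCN proteins are small secreted signalling proteins that bind integrins and heparan sulphate, and Ccn1 and Ccn2 are known targets of the YAP and TEAD transcription factors that respond to cell tension. Ccn1 (1368290_at) read 369 and 110 on IL-1b replicates 1 and 2, against 111 and 71.3 on vehicle replicates 1 and 2. IL-1b replicate 1 was the highest, and IL-1b replicate 2 lay just under the higher vehicle array. The fitted log2 change was 1.14 ± 0.55 (SE, adjusted p = 0.24; 95% interval -0.18 to 2.45). Leaving out IL-1b replicate 1 gave 0.29, and leaving out IL-1b replicate 2 gave 1.98.

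Ccn2, also called connective tissue growth factor, is known for driving matrix production together with TGF-beta. Its probe set, 1367631_at, read 25289 and 11513 on IL-1b replicates 1 and 2, against 14034 and 13569 on vehicle replicates 1 and 2. The IL-1b arrays lay on opposite sides of those with vehicle. The log2 fold change was 0.31 ± 0.37 (SE, adjusted p = 0.63; 95% interval -0.56 to 1.17). When IL-1b replicate 1 was left out it was -0.26, and when IL-1b replicate 2 was left out it was 0.87.

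Ccn3, a family member known to restrain growth of vascular smooth muscle cells, was the 1 member with a negative estimate. Its probe set, 1368883_at, read 14246 and 9181 on IL-1b replicates 1 and 2, against 13697 and 13451 on vehicle replicates 1 and 2. IL-1b replicate 2 was the lowest of the 4 arrays and IL-1b replicate 1 the highest. The log2 fold change was -0.25 ± 0.26 (SE, adjusted p = 0.58; 95% interval -0.85 to 0.36). It was -0.56 without IL-1b replicate 1, past the threshold, and 0.07 without IL-1b replicate 2. After quantile normalization, which gives all 4 arrays the same distribution of values, the log2 levels of Ccn3 were 13.31 and 13.38 with IL-1b and 13.93 and 13.95 with vehicle. On that scale the groups did not overlap, and Ccn3 was lower by limma (log2 fold change -0.60 ± 0.07, SE, adjusted p = 0.0029). It was the 1 member called under quantile normalization besides Tnc, which stayed at 1.76. With median centring Ccn3 was at -0.45 ± 0.16 (SE, limma, adjusted p = 0.098) and was not called.

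**Figure D3:**
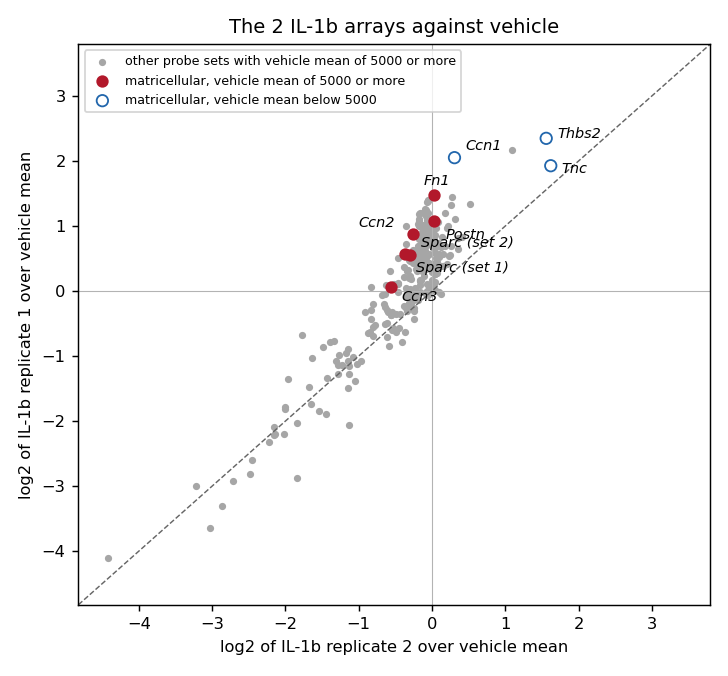
Log2 ratio to the vehicle mean on IL-1b replicate 2 (horizontal) and IL-1b replicate 1 (vertical) for the bright matricellular probe sets (filled red), the dimmer ones (open blue) and the other probe sets with a vehicle mean of 5000 or more (grey); the dashed line marks equal ratios. Of the 294 bright probe sets, 258 lie above the dashed line, as do all 9 matricellular probe sets, and Tnc is closest to the line among the 9.

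Relatives of the members were taken from a list of 22 genes, of which 20 had a probe set and 13 were tested. Among these, 0 were higher by limma and 4 were lower, against 7.19% and 8.13% of all genes tested. Their median log2 fold change was -0.49. At an unadjusted p under 0.05, 1 was higher and 5 lower, against 1398 and 1592 of all 10000 genes tested. Ccn5, a CCN protein that lacks the C-terminal domain of the other family members, read 4579 and 4258 with IL-1b and 7537 and 7306 with vehicle (log2 fold change -0.75 ± 0.16, SE, adjusted p = 0.025). Smoc1, of the SPARC family, read 3572 and 3400 with IL-1b and 7410 and 7666 with vehicle (-1.11 ± 0.16, adjusted p = 0.0045). Both IL-1b arrays of each gene lay below both vehicle arrays and close to each other, unlike those of Ccn2 and Sparc. Ecm1 and Srpx2 were also lower, at -1.17 and -1.23. Ccn5 and Smoc1 missed the threshold without vehicle replicate 1 or 2, when 2 relatives were called lower. Without IL-1b replicate 1 or 2, 1 or 4 relatives were called higher. Spp1, osteopontin, did not pass, and its IL-1b arrays also lay apart, at 39041 and 14357 with IL-1b against 15631 and 14573 with vehicle (adjusted p = 0.40). Spp1 was named after its values were seen.

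Receptors that bind these proteins moved in both directions, with 3 of 19 tested higher and 6 lower, against 7.19% and 8.13% of all genes tested. Their median log2 fold change was 0.27. Itga5, the alpha chain of the main fibronectin receptor, read 3184 and 2946 with IL-1b and 568 and 638 with vehicle, and the groups did not overlap. It rose by 2.34 ± 0.14 on the log2 scale (SE, adjusted p = 0.000154). Its partner Itgb1, named after its values were seen, read 8513 and 5785 with IL-1b and 5320 and 5292 with vehicle and did not pass (adjusted p = 0.29). The other receptors that rose, named after their values were seen, were the heparan sulphate proteoglycan Sdc4 at 1.21 and the endocytic receptor Lrp1 at 0.63, which takes up thrombospondins. Among those that fell were the laminin receptor chain Itga6 at -1.95, the Wnt co-receptor Lrp6 at -1.79 and the syndecan Sdc3 at -1.33, which only 1 of the 2 IL-1b arrays measured above background. Itga6 missed the threshold without vehicle replicate 1, and Sdc3, Sdc4 and Lrp1 without either vehicle array. Of this list, 7 were higher and 7 lower when IL-1b replicate 1 was left out, and likewise for IL-1b replicate 2. Without vehicle replicate 1 it was 1 higher and 1 lower, and without vehicle replicate 2 it was 1 higher and 2 lower.

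TGF-beta is held latent in the matrix, thrombospondin 1 can activate it, and Ccn2, Postn, Tnc and Fn1 are among its known targets. Of 18 tested genes of TGF-beta ligands, receptors, SMADs and targets, 3 were higher and 3 lower, with a median log2 fold change of 0.07. The shares over all genes tested were 7.19% higher and 8.13% lower. The 3 ligands differed in direction. Tgfb3 read 158 and 165 with IL-1b and 1246 and 1240 with vehicle, and fell by 2.90 on the log2 scale (SE 0.16, adjusted p = 0.000104). Tgfb2 fell by 1.70, and Tgfb1, named after its values were seen, rose by 1.52 (adjusted p = 0.00116). Ltbp2 rose by 2.26 and the SMAD corepressor Tgif1 by 2.06. Ltbp3, also named after its values were seen, fell by 0.54 (adjusted p = 0.045), and missed the threshold without either vehicle array, when 2 genes of the list were lower. Without IL-1b replicates 1 and 2 the genes called higher numbered 7 and 8, and leaving out IL-1b replicate 2 also gave 5 that were lower.

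Of 19 tested YAP and TEAD targets other than Ccn1 and Ccn2, 5 were higher and 7 lower, against 7.19% and 8.13% of all genes tested. Their median log2 fold change was -0.42. Tgfb2 stands in this list and in that of TGF-beta. The RNA-binding protein gene Rbms3 read 638 and 948 with IL-1b and 3871 and 3980 with vehicle, and fell by 2.33 (SE 0.20, adjusted p = 0.000559). The phosphatase Ptpn14, an inhibitor of YAP, fell by 2.09. Also lower, besides Tgfb2, were Ankrd1 at -1.44, F3 at -1.21, Crim1 at -0.80 and Lats2 at -0.79, each named after its values were seen. Those that rose were Fjx1 at 2.17 and the stress gene Gadd45a at 2.16, and, named after their values were seen, the receptor kinase Axl at 1.37, Nt5e at 1.21 and Arhgef17 at 0.68, which missed the threshold without vehicle replicate 1 or 2. Without vehicle replicate 2 and without IL-1b replicate 2 the genes called lower numbered 4 and 11.

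Of 19 proteases with a probe set that are known to cut fibronectin or matricellular proteins, 12 were tested. Of these 12, 7 were higher and 1 lower, against 7.19% and 8.13% of all genes tested. Mmp3, Mmp13 and Adamts4 passed the filter only through their IL-1b arrays. Among the 9 tested genes left without them, a choice made after seeing the data, 4 were higher and 1 lower, with a median log2 fold change of 0.62. The filter at the 60th percentile left out the same genes, so its equal counts add nothing to this. The largest called changes were those of Mmp3, Mmp13, Adamts4 and Plat. The vehicle arrays were below background for the first 3 of them, which gives bounds of at least 38.4-fold, 24.4-fold and 18.1-fold with IL-1b. The 1 that fell, named after its values were seen, was Adamts1, at -1.71. Without IL-1b replicates 1 and 2, 3 and 2 genes of this list were lower. Of 17 tested partners in fibronectin and collagen assembly, 2 were higher and 4 lower, against 7.19% and 8.13% of all genes tested. Their median log2 fold change was 0.07. Tgm2, the transglutaminase that crosslinks fibronectin, rose by 1.42 and Fbln2, a fibronectin-binding protein, by 1.12. Tns1, which ties fibronectin-bound integrins to actin, read 1353 and 1295 with IL-1b and 5677 and 5859 with vehicle, and fell by 2.12. The collagen lysyl hydroxylase Plod2 fell by 1.03, and Col5a1 and P4ha1, named after their values were seen, by 0.85 and 0.63. Fbln2, Plod2, Col5a1 and P4ha1 missed the threshold without vehicle replicate 1 or 2. The genes called higher numbered 4 and 7 without IL-1b replicates 1 and 2, and those called lower 8 and 6. With either vehicle array left out, 1 was higher and 1 lower.

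**Figure D4:**
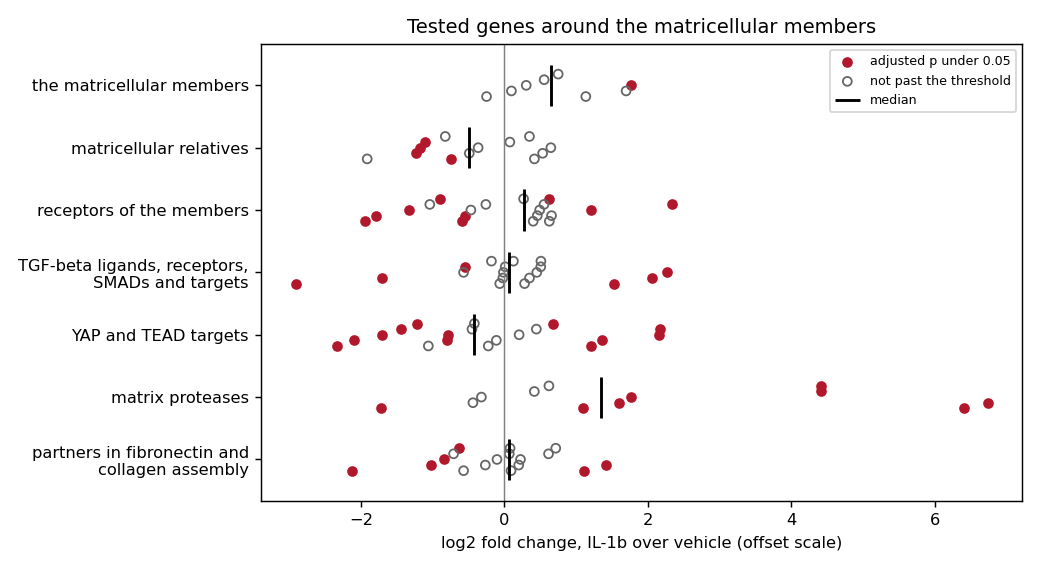
Log2 fold change of IL-1b over vehicle for every tested gene of the matricellular members and of each list around them; filled red points passed an adjusted p of 0.05, open points did not, and black bars are list medians. The members have 1 filled point, Tnc, and among the proteases the 2 points furthest right are Mmp13 and Mmp3, which entered the test only through their IL-1b arrays.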

How the data were processed

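The authors deposited MAS5 probe set intensities on a linear scale, per the submitters' processing notes. Its version and settings were not given in the sources used here. Such values are background-subtracted and scaled per array, and their mean after trimming 2% off each end was 250.1 on all 4 arrays, so no normalization was added. Scaling alone can make these means equal, so they do not show that the arrays are alike. The median intensity was 89.6 and 61.7 on IL-1b replicates 1 and 2, and 66.4 and 61.3 on vehicle replicates 1 and 2. Before log2, 5.49 was added to every value (the 10th percentile), which understates changes of dim genes. Left out were 57 control probe sets and, as dim, those whose mean log2 value was under 5.37, the 40th percentile. limma 3.58.1 (R 4.3.3) fitted the remaining 18625 with lmFit and eBayes with an intensity trend, on 2 residual and 4.91 prior degrees of freedom. Benjamini-Hochberg adjustment ran over all of them, with a threshold of 0.05. A gene is represented by its brightest tested probe set with 1 symbol. For a gene under background on both arrays of one group, the fold is a bound: the geometric mean of the brighter group over background, or over the gene's own value where that is higher. Precision is limited by the number of arrays. The fit was first tested on simulated data.

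The members, lists and tests were chosen with earlier results of these data known. Named are all members, up to 4 called genes of each list with the greatest change, the 2 genes nearest to each called member, and others where marked. Alternatives were other offsets, normalizations, filters, priors and thresholds, the mean over a gene's probe sets, the replicate number as a block, and leaving out each array, where the lone sample is assumed to vary as the other group does. The IL-1b arrays correlated at r = 0.912 and the vehicle arrays at 0.972. A fit without 1 IL-1b array took its residual spread from the closer vehicle pair alone. Its calls, also those counted for gene lists, are therefore not read as results.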

Additional observations from a re-analysis of the deposited data

How the results depend on the processing

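Tnc was called higher under all 16 alternatives run, with log2 fold changes of 1.56 to 1.92 over the 13 that refit single probe sets, and Thbs2 had no value with the filter at the 60th percentile. The 9 member probe sets kept their direction and their side of the threshold in 97 of 116 refits. Quantile normalization turned the log2 fold changes of Sparc to -0.25 and -0.18 and of Ccn2 to -0.11, none of them called, and 1 member (Ccn3) was then called lower. Median centring turned those of Sparc to -0.11 and -0.073, and moved the median of all genes from -0.01 to -0.21. The calls over all probe sets then numbered 562 higher (34.4% of calls) and 1072 lower, against 1178 (47.1%) and 1325 with the deposited scaling. Leaving out each array gave 1 to 7 members called higher and 0 to 3 lower, and 699 to 4137 probe sets called higher and 658 to 4529 lower. The 1 to 7 turned on IL-1b replicate 2 and the 0 to 3 on IL-1b replicate 1. The log2 fold change lay between -0.37 and 0.57 and between -0.30 and 0.56 for the probe sets of Sparc, between -0.26 and 0.87 for Ccn2, and between -0.56 and 0.070 for Ccn3. Without the intensity trend 484 probe sets were called higher and 479 lower, and at an adjusted p under 0.01 it was 595 and 627. The causes of these shifts were not tested.

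The replicate numbers were not taken to pair the samples, as the labels name no shared source. Replicate 1 minus replicate 2 correlated between the groups at r = 0.09 over 18625 probe sets. With 2 pairs, and with IL-1b replicate 1 unlike the other arrays, this cannot show whether the samples were paired. With the replicate block, 2 members were called higher, since Ccn1 (1.14) passed with an adjusted p of 0.040, with 1517 probe sets higher and 1759 lower. Of the called genes named from the lists, Ccn5, Ecm1, Smoc1, Srpx2, Fbln2, Itga6, Plod2, Sdc3, Sdc4, Lrp1, Ltbp3, Nt5e, Arhgef17, Col5a1 and P4ha1 missed the threshold without the intensity trend. With median centring it was Tgm2, Lrp1, Ltbp3, Nt5e, Arhgef17, Col5a1 and P4ha1. Ltbp3 also missed it with no filter and with the replicate block, and Sdc4 with no offset and with the filter at the 60th percentile. Ankrd1, F3, Crim1 and Lats2 were not followed through the alternatives. Without IL-1b replicate 1 the log2 fold change of Spp1 was -0.072, and without IL-1b replicate 2 it was 1.37. Thbs2 lies near background, which limits what its values can show.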
